A study of Mus musculus with 3 samples.

Results

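Cytokine receptors were described in J774A.1, a macrophage-like line of mouse, through 10 genes among the 27720 gene names on the array. They are Il7r, Il2rg, Il4ra, Il6ra, Il10ra, Il10rb, Csf2ra, Csf2rb1, Ifngr1 and Ifngr2. Every probe that carried one of these names was taken, which gave 17 of 41125 probes. The cells were kept for 6 h in EBSS with 10 µM SB202190, in EBSS, or in RPMI medium with 10% fetal bovine serum (RPMI). EBSS is Earle's Balanced Salt Solution, which holds glucose and no amino acids, and SB202190 inhibits p38 MAP kinases. The labels name no serum for EBSS and no solvent control for the inhibitor, and the design text can also be read as RPMI in all 3 media, so the source names were followed. The 3 RNAs were hybridised in pairs on 3 arrays with 2 dyes each, 1 array for every pair, and each medium was labelled once with Cy5 and once with Cy3. Each medium was 1 sample, so no test between media was possible and no p-value is given. All errors are technical and leave out the spread between cultures.

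The cytokine receptors described here have no enzyme activity of their own. A ligand-binding chain pairs with a signalling chain, the Janus kinases bound to their tails are activated, and these phosphorylate STAT transcription factors that enter the nucleus. In macrophages, interferon-γ and GM-CSF promote inflammatory activation, interleukin-10 restrains it, and interleukin-4 and interleukin-13 direct an alternative programme. The 10 genes cover a chain of the interleukin-7 receptor (Il7r), the shared gamma chain (Il2rg), the receptor chains of interleukin-4 (Il4ra), interleukin-6 (Il6ra), interleukin-10 (Il10ra, Il10rb), GM-CSF (Csf2ra, Csf2rb1) and interferon-γ (Ifngr1, Ifngr2).

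The promoters of Il7r and Ifngr2 are shown because these were the 2 members with a counted difference between media and an entry in the promoter table. Each runs from 250 bases before to 50 after the gene's start, 5′ to 3′ on the gene's strand (RefSeq, GRCm38.p6). The Il7r promoter is chr15:9529827-9530126 on the minus strand and the Ifngr2 promoter is chr16:91546809-91547108 on the plus strand. Capitals mark the motifs that were found.
Il7r: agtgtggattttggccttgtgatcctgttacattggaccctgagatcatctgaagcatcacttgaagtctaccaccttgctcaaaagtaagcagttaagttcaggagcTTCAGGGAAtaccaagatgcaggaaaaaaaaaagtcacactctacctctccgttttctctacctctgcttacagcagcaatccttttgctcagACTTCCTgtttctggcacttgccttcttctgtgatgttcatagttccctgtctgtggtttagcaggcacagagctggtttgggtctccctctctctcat
Ifngr2: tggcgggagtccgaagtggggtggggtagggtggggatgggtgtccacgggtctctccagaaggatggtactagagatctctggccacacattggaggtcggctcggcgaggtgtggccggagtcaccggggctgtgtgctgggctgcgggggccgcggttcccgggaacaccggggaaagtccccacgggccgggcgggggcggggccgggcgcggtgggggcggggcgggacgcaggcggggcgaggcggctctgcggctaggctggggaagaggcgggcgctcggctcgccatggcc

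The Il7r promoter held the STAT half-site pair TTCNNNGAA at -142 from the start, and the PU.1 motif AGGAAGT on the opposite strand at -49. PU.1 is a transcription factor of the macrophage lineage, though not of that lineage alone. The STAT letters occurred in 8.47% and the PU.1 letters in 9.57% of 27025 promoters of the same length, with both strands searched. The Ifngr2 promoter held none of the 5 motifs searched, and its GC content was 74.3%, against 45.7% for Il7r. The other motifs were GTAAACA (FOXO, in 3.55% of promoters), TGATGNAA (an ATF4 composite element, 4.06%) and TGANTCA (AP-1, 7.93%). None of these was found in the 7 members with an entry, and the Il6ra promoter held the PU.1 letters at -174. A match is a description of the letters and not of binding. Il10ra, Il10rb and Csf2rb1 are named only.

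Per channel, 40.1% to 49.9% of the spots exceeded background clearly. The markers chosen for macrophages, among them Csf1r, Cd68 and Itgam, were well above background in all 3 media for 8 of 8 genes, and those of other cell types for 3 of 23 in each medium (Lck, S100a8 and Hba-a1). T cell and B cell markers Cd3g, Cd8a, Ms4a1 and Pax5 were well above background in no channel. The log2 ratios of the 8 macrophage markers lay between -0.77 and 0.41 for EBSS against RPMI. With SB202190 added to EBSS, Cd14 differed by -1.56 from EBSS and -1.94 from RPMI, and Fcgr1 by -1.31 and -1.38. Sfpi1, which encodes PU.1, differed by -0.40 from EBSS and -1.09 from RPMI. In EBSS without the inhibitor, Sfpi1 already stood at -0.70 against RPMI. Fewer cells of a kind and less RNA per cell cannot be told apart in these bulk samples.

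Of the 10 receptor genes, 1 was counted as higher in EBSS than in RPMI, beside 4.49% of all genes measured, and 2 as lower, beside 2.83%. Il7r was 4.89-fold higher, Il10ra 2.87-fold lower and Csf2rb1 2.78-fold lower. With SB202190 in EBSS, 0 receptors were higher than in EBSS, beside 0.896% of all genes, and 1 was lower, beside 2.93%, namely Il7r at 4.77-fold. Comparing EBSS with SB202190 to RPMI, 0 receptors were higher, beside 1.45% of all genes, and 3 were lower, beside 2.42%. These were Il10ra (2.95-fold), Ifngr2 (2.73-fold) and Csf2rb1 (2.05-fold). With 10 genes, 1 receptor more or less moves such a share by a large step.

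A gene counted only if 3 conditions held. Its ratio on the log2 scale reached a size of 1, the direct array and the indirect path over the remaining arrays each reached 0.5 in that direction, and the probe exceeded background clearly on the 2 arrays of a medium in the comparison. The median log2 ratio of the 10 receptors was -0.07 in EBSS against RPMI, beside 0.00 over all genes. It was -0.07 for SB202190 in EBSS, beside 0.00, and -0.19 for EBSS with SB202190 against RPMI, beside 0.01. The 3 comparisons share samples, so they are not independent of each other.

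**Figure D1:**
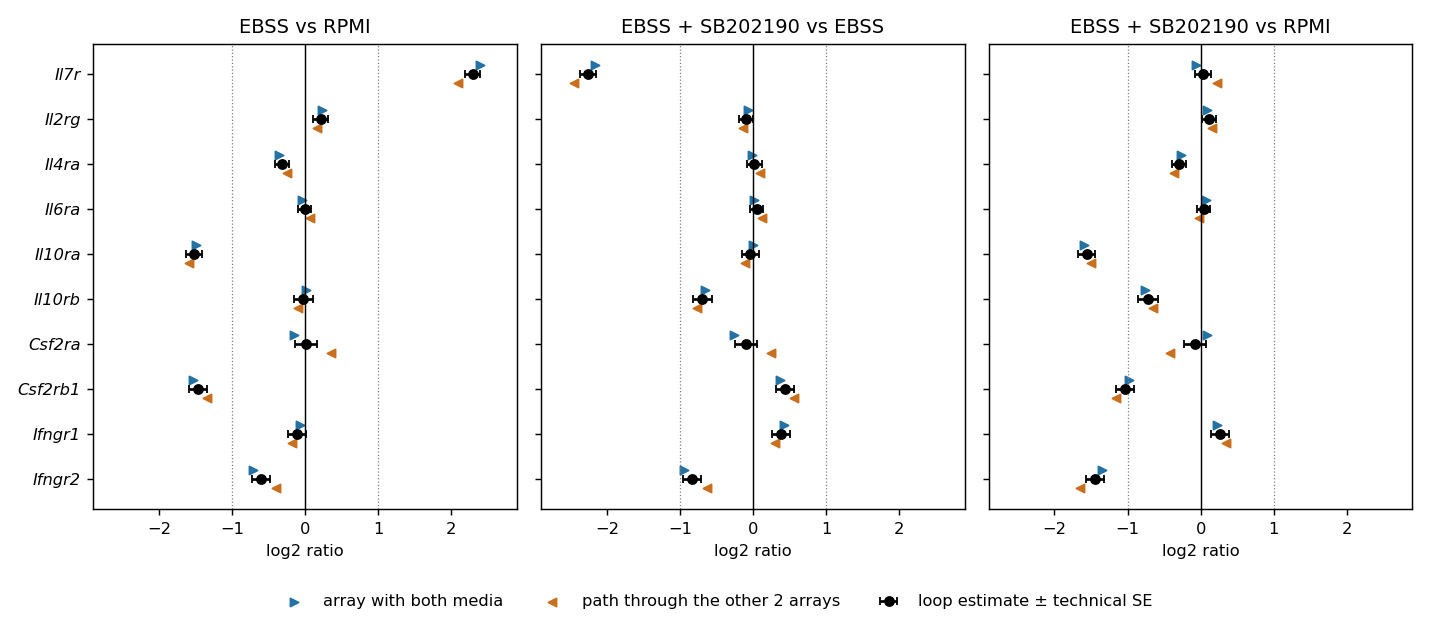
Log2 ratios of the 10 receptor genes (brightest probe of each) in the 3 comparisons. Circles are least-squares estimates over the loop with the technical SE as bars, right-pointing triangles the direct array, left-pointing triangles the indirect path, and dotted lines mark 1 and -1. Il7r stands at 2.29 in EBSS against RPMI and at -2.25 with SB202190 in EBSS, and Il10ra at -1.52 and -1.56 in both comparisons with RPMI.

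Il7r encodes the ligand-binding chain for interleukin-7, best known from lymphocyte development, and is also used by the receptor for the cytokine TSLP. Its brightest probe read 10.06 (Cy5) and 10.33 (Cy3) on the log2 intensity scale in EBSS with SB202190, 12.49 and 12.43 in EBSS, and 10.04 and 10.12 in RPMI. The EBSS readings lay above all others by more than 2 log2 units, and the readings with SB202190 overlapped those in RPMI. Before normalization, the net intensity in Cy5 was 836.7 in EBSS with SB202190, 5618 in EBSS and 1028.5 in RPMI, against a median of 40.7 to 42.6 for the negative control spots in that dye. In Cy3 it was 859.2, 3839 and 938.0 in the same media, against 162.7 to 171.6 for negative controls. The high value in EBSS therefore appeared in each dye.

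The log2 ratio of Il7r was 2.29 ± 0.11 (technical SE) in EBSS against RPMI, with 2.39 on the direct array and 2.10 along the indirect path. For EBSS with SB202190 against EBSS it was -2.25 ± 0.11, with -2.16 and -2.45 along these paths. Against RPMI, Il7r in EBSS with SB202190 differed by 0.04 ± 0.11, which is within the error. Of 6 T cell markers, Lck, a kinase of T cell receptor signalling, moved in the same directions as Il7r in these 2 comparisons. Lck stood at 1.28 in EBSS against RPMI and -0.71 with SB202190 in EBSS, the second below the size for a count. Unlike Il7r, Lck was above its RPMI level in EBSS with SB202190, at 0.57. The other markers differed by at most 0.06 in size in these comparisons, and Cd3g and Cd8a were well above background on 0 arrays. Among 12064 genes, those with the pattern over the 3 arrays nearest to Il7r were Il1rn (distance 0.12), Bcl2a1b (0.19) and Klf4 (0.23). Il1rn encodes the interleukin-1 receptor antagonist, Bcl2a1b an anti-apoptotic BCL2 relative and Klf4 a zinc finger transcription factor. Their log2 ratios were 2.24, 2.21 and 2.20 in EBSS against RPMI and -2.16, -2.32 and -2.35 for EBSS with SB202190 against EBSS.

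Il7r had 2 further probes. The brightest lies at chromosome 15 from 9450946 to 9451005 (mm8, minus strand), the second 4967 bases and the third 6594 bases upstream of it. The second probe read 8.78 and 9.20 in EBSS with SB202190, 9.66 and 9.91 in EBSS, and 8.91 and 8.85 in RPMI, so EBSS was again the highest medium. Its log2 ratio was 0.80 ± 0.10 in EBSS against RPMI and -0.66 ± 0.10 with SB202190 in EBSS, below the size needed for a count. The direct array and the indirect path gave 1.01 and 0.39 in the first, and -0.46 and -1.08 in the second. In each, 1 path fell short of 0.5. Its ratios summed to -0.62 around the loop, so the errors, taken from probes of like intensity, may be too small here. From the scanner software's processed signals the same probe gave 2.67 and -2.61, and the brightest probe 2.75 and -2.75. The second probe lay 0.60 log2 units above the median of negative controls and the brightest 2.33. The third probe, designed on another transcript record, was well above background in no medium on both of its arrays, and its ratios were not counted.

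**Figure D2:**
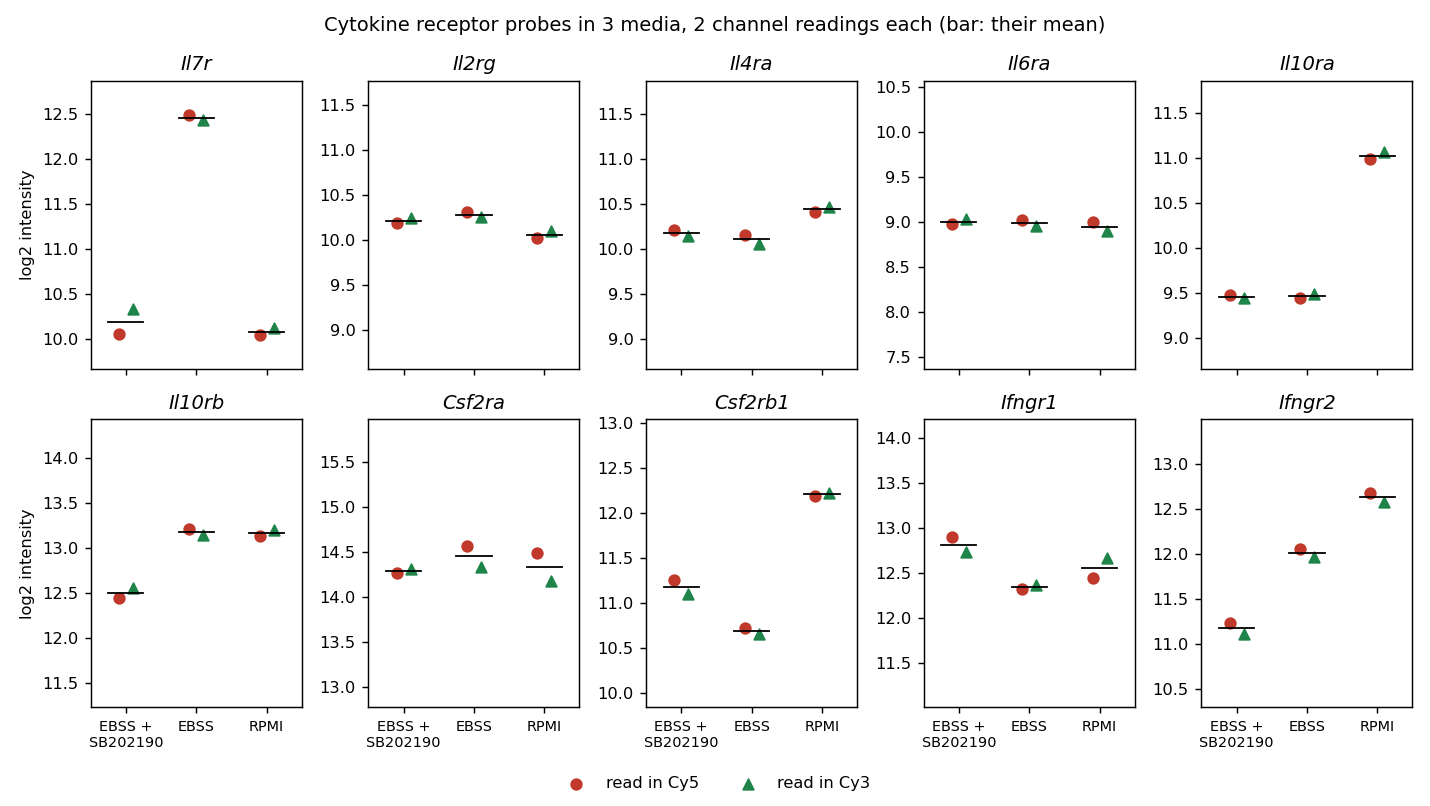
Log2 intensity of the brightest probe of each receptor gene in EBSS with SB202190, EBSS and RPMI, with 1 reading in Cy5 (circle) and 1 in Cy3 (triangle) per medium and their mean as a bar. Every panel spans the same number of log2 units, and levels of different probes are not comparable. Il7r is high in EBSS alone, Il10ra and Csf2rb1 are highest in RPMI, and Ifngr2 falls into 3 separate levels.

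Il2rg encodes the gamma chain that pairs with the interleukin-7 chain and with those of several other interleukins. It read 10.19 and 10.24 in EBSS with SB202190, 10.31 and 10.25 in EBSS, and 10.02 and 10.09 in RPMI. Its log2 ratio was 0.21 ± 0.10 in EBSS against RPMI and -0.10 ± 0.10 between EBSS with SB202190 and EBSS, and neither was counted. Il4ra, the interleukin-4 binding chain that also uses the gamma chain, read 10.21 and 10.14 in EBSS with SB202190, 10.16 and 10.06 in EBSS, and 10.41 and 10.47 in RPMI. The RPMI readings were the highest, and those of the 2 EBSS media overlapped. Its log2 ratio was -0.32 ± 0.10 in EBSS against RPMI, -0.30 ± 0.10 in EBSS with SB202190 against RPMI, and neither was counted.

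Il6ra encodes the interleukin-6 binding chain, which signals through gp130. Its brighter probe read 8.97 and 9.03 in EBSS with SB202190, 9.02 and 8.95 in EBSS, and 8.99 and 8.89 in RPMI. All 3 media overlapped, and the ratios of both its probes were at most 0.07 in size. The probes lay 0.41 and 0.33 log2 units above the median of negative controls, so a difference between media could be understated here. The scanner software's processed signals gave -0.17 and -0.31 in EBSS against RPMI and 0.27 and 0.22 with SB202190 in EBSS.

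The interleukin-10 receptor joins the ligand-binding chain Il10ra with Il10rb, a chain that other receptors of this family share. Il10ra read 9.48 and 9.45 in EBSS with SB202190, 9.45 and 9.498 in EBSS, and 10.99 and 11.07 in RPMI. RPMI stood apart above both EBSS media, which overlapped. The log2 ratio was -1.52 ± 0.11 in EBSS against RPMI and -1.56 ± 0.11 in EBSS with SB202190 against RPMI. SB202190 in EBSS gave -0.04 ± 0.11. The net intensity of its probe, at chromosome 9 from 45005149 to 45005208 (mm8, minus strand), was 529.8 in EBSS with SB202190, 380.7 in EBSS and 2594 in RPMI, all in Cy5.

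Il10rb had another order. Its probe above background, at chromosome 16 from 91314506 to 91314565 (mm8), read 12.45 and 12.56 in EBSS with SB202190, 13.22 and 13.15 in EBSS, and 13.14 and 13.20 in RPMI. EBSS and RPMI overlapped, with a log2 ratio of -0.03 ± 0.13, and EBSS with SB202190 lay below both. The ratio was -0.69 ± 0.13 against EBSS and -0.72 ± 0.13 against RPMI, short of a count. The other Il10rb probe, 11309 bases upstream, was well above background nowhere.

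The GM-CSF receptor joins the specific chain Csf2ra with the beta common chain Csf2rb1, which also serves interleukin-3 and interleukin-5. Csf2ra read 14.26 and 14.30 in EBSS with SB202190, 14.57 and 14.33 in EBSS, and 14.49 and 14.17 in RPMI. The readings in Cy5 and Cy3 of 1 medium differed by up to 0.31, more than the means of any media did. Its log2 ratios were 0.01 ± 0.15 in EBSS against RPMI, -0.09 ± 0.15 with SB202190 in EBSS and -0.08 ± 0.15 against RPMI, and the 2 paths gave opposite signs in each.

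Csf2rb1 read 11.25 and 11.10 in EBSS with SB202190, 10.72 and 10.65 in EBSS, and 12.18 and 12.22 in RPMI. The media did not overlap, with RPMI highest and EBSS lowest. The log2 ratio was -1.47 ± 0.13 in EBSS against RPMI and -1.04 ± 0.13 in EBSS with SB202190 against RPMI. The second of these is close to the limit for a count. Against EBSS, the cells with SB202190 differed by 0.44 ± 0.13, which was not counted. These values are from 1 of 3 probes, at chromosome 15 from 78177993 to 78178052 (mm8), designed on another transcript record than the others. The others, 2528 and 4312 bases upstream, gave -0.10 and 0.01 in EBSS against RPMI. Of these others, the first was well above background in RPMI alone and lay 0.12 log2 units above the median of negative controls, and the second lay 0.32 above it. From processed signals they gave -1.09 and 0.06, against -1.82 for the brightest, so the probes of this gene did not match. Csf2rb2, a mouse paralog of near-identical sequence, had a probe with -0.61 ± 0.10 in EBSS against RPMI, and how far the probes of the pair share target RNA was not analysed here.

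The interferon-γ receptor joins the ligand-binding chain Ifngr1 with the signalling chain Ifngr2. Ifngr2 read 11.23 and 11.11 in EBSS with SB202190, 12.05 and 11.96 in EBSS, and 12.67 and 12.58 in RPMI. The 3 media stood apart in this order, lowest with SB202190. The log2 ratio was -0.61 ± 0.13 in EBSS against RPMI and -0.84 ± 0.13 for EBSS with SB202190 against EBSS, neither of which was counted. For EBSS with SB202190 against RPMI it was -1.45 ± 0.13, with -1.34 and -1.65 along the 2 paths, and this was counted. The brightest probe lies at chromosome 16 from 91452596 to 91452655 (mm8). The other probe of Ifngr2, 1990 bases upstream, gave the same order of media and smaller ratios by normexp and loess. They were -0.57 ± 0.11 in EBSS with SB202190 against RPMI and -0.41 ± 0.11 in EBSS against RPMI. For SB202190 in EBSS the ratio was only -0.17 ± 0.11, with -0.06 on the direct array and -0.39 along the indirect path. From processed signals this probe gave -0.96, -0.784 and -0.18 in that order, against -1.58, -0.735 and -0.84 for the brightest.

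Ifngr1 read 12.89 and 12.73 in EBSS with SB202190, 12.31 and 12.37 in EBSS, and 12.44 and 12.66 in RPMI. EBSS with SB202190 was highest, where its partner Ifngr2 was lowest. The log2 ratio was 0.38 ± 0.13 for EBSS with SB202190 against EBSS, 0.27 ± 0.13 against RPMI and -0.11 ± 0.13 in EBSS against RPMI. None of these was counted.

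**Figure D3:**
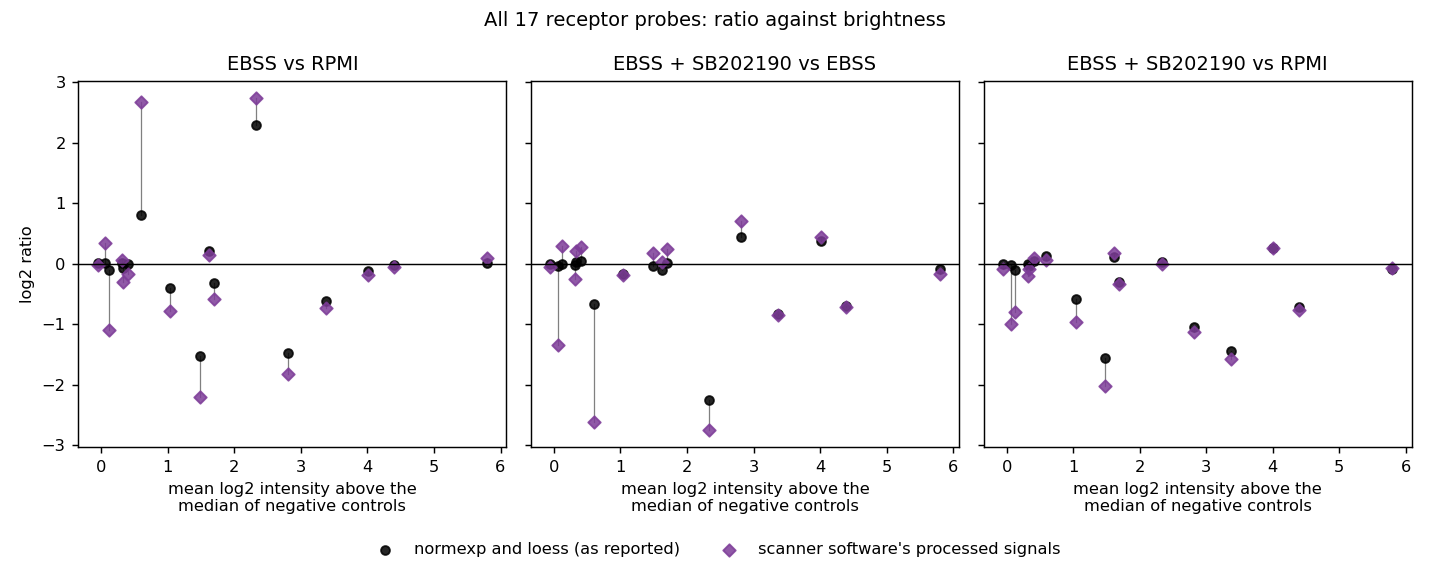
Log2 ratio of all 17 receptor probes against their mean log2 intensity above the median of negative controls, for the 3 comparisons. Circles are the values as reported and diamonds those from the scanner software's processed signals, joined for each probe. For the second Il7r probe, 0.60 above negative controls, the 2 values were 0.80 and 2.67 in EBSS against RPMI. For the brightest Il7r probe, 2.33 above negative controls, they were 2.29 and 2.75. The Csf2ra probe, 5.80 above negative controls, had ratios near 0 from both sources (0.01 and 0.10).

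The probes thus differed in how far their ratios could be read. Of the 17 probes, 14 were well above background in all 3 media, 1 in some and 2 in none. Of the 5 genes with several probes, the brightest was the one nearest the 3′ end in 5, going by the coordinates. Whether the probes lie in exons or untranslated regions was not analysed here.

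Among 12 other measured subunits of this receptor class, 0 were counted in EBSS against RPMI and in EBSS with SB202190 against RPMI, and 0 of 11 for SB202190 in EBSS. Over all genes, the shares counted as higher were 4.49%, 1.45% and 0.896% in that order, and as lower 2.83%, 2.42% and 2.93%. The medians of these subunits were -0.10, -0.16 and -0.04 in that order of comparisons. The scanner software's processed signals counted 2 (1 higher, 1 lower), 3 (1 higher, 2 lower) and 2 (1 higher, 1 lower) in the same order. The largest ratios belonged to Ifnar1, a chain of the interferon-α/β receptor, at -0.90 ± 0.13 in EBSS against RPMI, and Csf2rb2, at -0.89 ± 0.10 in EBSS with SB202190 against RPMI. Il6st, which encodes gp130 and was singled out after its values were seen, differed by -0.79 ± 0.10 between EBSS with SB202190 and EBSS, on both paths (-0.77 and -0.85). From processed signals it gave -1.25. Of 14 ligands only Il15 was measured, at 0.65 ± 0.10 for SB202190 in EBSS and 0.00 ± 0.10 in EBSS against RPMI, and Il7, Il10, Csf2 and Ifng were well above background on both arrays of no medium. For SB202190 in EBSS, Il15 gave 0.44 on the direct array, 1.09 along the indirect path, 0.18 from its other probe and 2.04 from processed signals, by which it was counted.

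Downstream of the receptors, 10 Janus kinase and STAT genes were measured. In EBSS against RPMI and with SB202190 in EBSS 0 were counted, with medians of 0.03 and 0.04. Against RPMI, 1 was lower in EBSS with SB202190, beside 2.42% of all genes. This was Stat5b, a STAT used by GM-CSF and interleukin-7, at -1.22 ± 0.10. The median of the 10 there was 0.04. In that comparison Stat5b was not counted on the indirect path alone (-0.87), under median centring (-0.93) or with the arrays scaled to equal spread. In EBSS without the inhibitor, Stat5b already stood at -0.82 ± 0.10 against RPMI, with -0.64 on the direct array and -1.17 along the indirect path. For SB202190 in EBSS it stood at -0.40 ± 0.10. Processed signals counted 2 lower in EBSS against RPMI, 2 higher for SB202190 in EBSS, and 1 higher and 1 lower in EBSS with SB202190 against RPMI. Median centring counted 4 higher in EBSS against RPMI, where it moved the median of all genes to 0.81.

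Of 16 measured signal inhibitors and receptor sheddases, 2 were higher in EBSS than RPMI, beside 4.49% of all genes, and 2 lower, beside 2.83%. Their median was 0.04. Socs3, the suppressor of cytokine signalling that acts on gp130, was lower, at -1.36 ± 0.11, as was Ptpn6, the phosphatase SHP-1, at -1.81 ± 0.13. Socs4 (1.06 ± 0.10) and Pias2 (1.31 ± 0.12) were higher, though other probes gave values down to 0.11 for Socs4 and 0.06 for Pias2. By the median over probes 0 were higher and 2 lower, and by median centring 7 were higher and 0 lower, with Socs3 at -0.66 and Ptpn6 at -0.63. With SB202190 in EBSS 0 of the 16 were counted against EBSS, and 0 higher and 2 lower against RPMI, which were Socs3 (-1.46 ± 0.11) and Ptpn6 (-1.35 ± 0.13). Over all genes, 0.896% were higher and 2.93% lower against EBSS, and 1.45% and 2.42% against RPMI. The medians of the 16 were -0.06 and -0.04. Median centring counted 0 of the 16 against RPMI with SB202190, and the median over probes 1. Against EBSS, processed signals, median centring and equal spread each counted 1 as lower. Another Ptpn6 probe gave -0.63 in EBSS and -0.64 in EBSS with SB202190, each against RPMI.

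Of 9 measured STAT target genes, 1 was higher and 1 lower in EBSS than in RPMI, beside 4.49% and 2.83% of all genes. Nfil3, a transcription factor, stood at 2.26 ± 0.13 and Bcl3, a regulator of NF-κB, at -1.81 ± 0.11. They kept these directions in EBSS with SB202190 against RPMI, at 2.37 and -2.01, beside 1.45% of all genes higher and 2.42% lower. Irf1, the transcription factor induced by interferon-γ, was counted as higher for SB202190 in EBSS, beside 0.896% of all genes. Irf1 stood at 1.06 ± 0.13, with 0.27 from its other probe. It was not counted on the indirect path alone (0.98), under median centring (0.32) or by the median over probes, and the first and second of these settings counted 0 of the 9 as higher and 1 as lower. Processed signals counted 1 higher and 2 lower there, and 4 higher and 1 lower in EBSS against RPMI, where median centring counted 5 higher and 0 lower. The medians of the 9 were 0.00 in EBSS against RPMI, -0.29 for SB202190 in EBSS, and -0.18 between EBSS with SB202190 and RPMI.

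**Figure D4:**
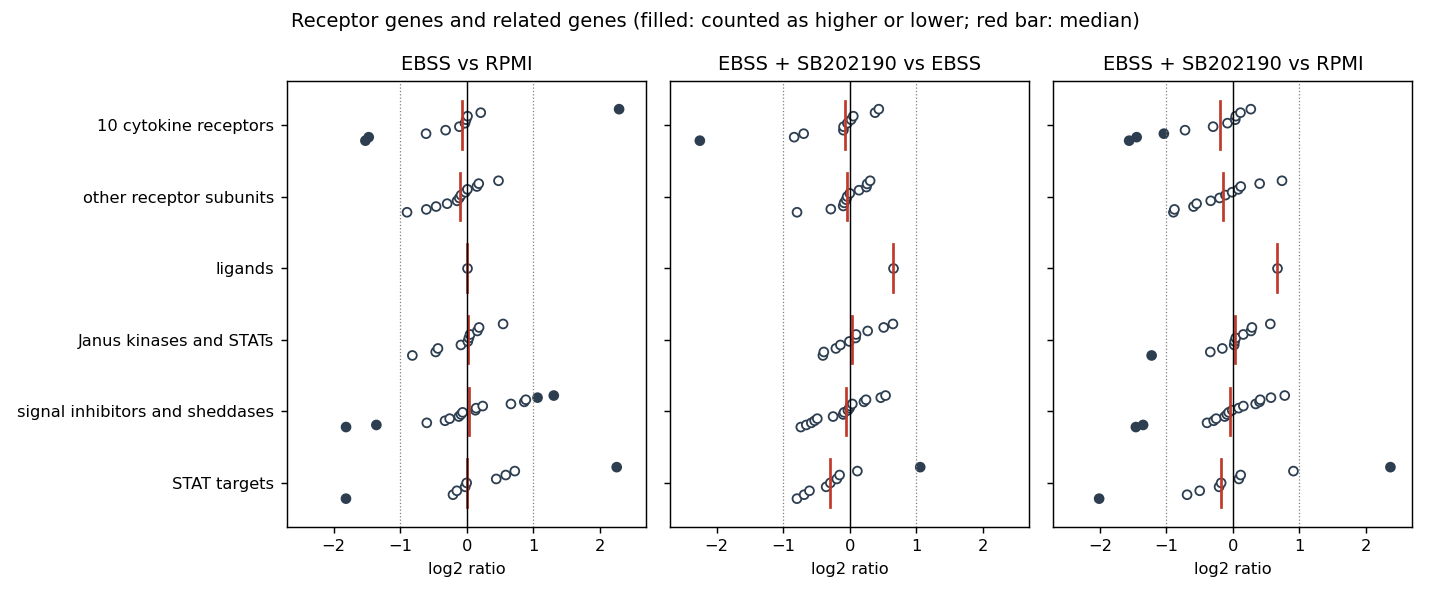
Log2 ratios of the 10 receptor genes and of the measured genes of 5 related lists, by comparison. Filled points were counted as higher or lower, open points were not, red bars are medians and dotted lines mark 1 and -1. Il7r (2.29) and Nfil3 (2.26) are the points above 2 in EBSS against RPMI, and Il7r (-2.25) is the point below -2 with SB202190 in EBSS.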

How the data were processed

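Each of the 3 media was 1 sample, read once in Cy5 and once in Cy3 on 3 Agilent arrays of 45018 spots, whose number limits the precision. Agilent Feature Extraction 9.5.3.1 read the spots, per the submitters' processing notes. Per the file headers, each file gives a spot's mean and local background intensity, not normalized, and a processed intensity after background subtraction and dye normalization. A deposited log10 ratio, Cy5 over Cy3, belongs to the processed signals. The authors' series table holds log2 ratios of the same processed signals without centring: it correlated with them at 0.9999 to 1.0000 over probes, and its medians were -0.0854, -0.0766 and -0.166. Deposited marks of other kinds flag outliers, controls, saturation and spots well above background, per the file headers.

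Intensities were corrected with normexp (offset 50) and normalized by loess with control spots (1639 per array) at weight 0, in limma 3.58.1 (R 4.3.3). Outlier spots were left out (411 in all), which cost 49 probes, and 0 spots were saturated. Log2 ratios are least-squares estimates over the loop, in which a dye effect equal on all arrays cancels. The technical SE came from the sum around the loop (SD 0.275), taken robustly within 30 intensity bins, with a median of 0.104. Readings per channel were scaled between arrays with Aquantile. A gene is its brightest probe, under the name the array design gave it. The loop estimate and the counting rule were tested on simulated data. Positions are the files' (mm8). Further steps used Python 3.11.15, numpy 2.4.6, pandas 2.3.3 and matplotlib 3.10.9.

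Named are all 10 receptors, every counted gene of the related lists or else their 2 largest ratios, and the 3 genes nearest to Il7r. Members, lists and rules were chosen with earlier results of these data known. The 8 alternatives were the processed signals, the series table, median centring, equal spread between arrays, each path alone, no filter on dim probes, and the median over a gene's probes.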

Additional observations from a re-analysis of the deposited data

How the results depend on the processing

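All 7 counted receptor ratios kept their sign under all 8 alternatives, though not all of these could change it. The counting rule already fixed the sign on each path alone. Without the filter on dim probes the same brightest probes were used, with the same values. The series table repeats the processed signals. The counts out of 8 below therefore hold fewer than 8 separate checks. Il7r stayed counted in 8 of 8 in EBSS against RPMI (1.55 to 3.27) and for SB202190 in EBSS (-2.97 to -1.46), and Il10ra in 8 of 8 for EBSS with SB202190 against RPMI (-2.02 to -1.10). Il10ra in EBSS against RPMI stayed counted in 7 (-2.20 to -0.79) and Ifngr2 in EBSS with SB202190 against RPMI in 7 (-1.65 to -0.998), each lost under median centring. Csf2rb1 stayed counted in 6 in EBSS against RPMI (-1.82 to -0.10) and in 4 in EBSS with SB202190 against RPMI (-1.16 to -0.11). It was lost in both under median centring and under the median over probes, and in the second also under equal spread and on the direct array alone.

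Median centring, which leaves trends with intensity in place, moved the median of all genes to 0.81, -0.45 and 0.34 in EBSS against RPMI, SB202190 in EBSS and EBSS with SB202190 against RPMI. It counted 5 receptors in the first (Il7r, Il2rg, Il10rb, Csf2ra and Ifngr1, all higher) and 1 in the third (Il10ra). Relative to those medians, Il7r stood at 2.46, -2.50 and -0.02, Il10ra at -1.60, 0.14 and -1.43, Csf2rb1 at -1.25, 0.32 and -0.90, and Ifngr2 at -0.32, -1.04 and -1.33. Over all genes, EBSS against RPMI had 871 counted (61.3% higher), 2066 (47.0%) by processed signals and by the series table, and 4284 (99.5%) by median centring. SB202190 in EBSS had 448 (23.4%), 1562 (50.2%) by each of those sources, 793 (2.4%) by median centring and 887 by equal spread. EBSS with SB202190 against RPMI had 461 (37.5%), 1253, 241 (62.7%) and 242 in that order. Counts of the related lists under other settings stand beside them in the results. The cause was not tested. Dim probes gave smaller ratios by normexp than by processed signals, so a low value near background does not show that media were alike. No paired analysis was possible because each medium is 1 sample.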
